A study of Mus musculus with 6 samples.

Results

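The nuclear-encoded genes of the mitochondrial respiratory chain were compared between livers of R159-treated and vehicle-treated mice. They were taken by gene symbol: symbols that begin with Nduf, Uqcr or Atp5, or with Sdha, Sdhb, Sdhc or Sdhd, the gene Cyc1, and symbols in which Cox4, Cox5, Cox6, Cox7 or Cox8 is followed by a letter. Symbols containing -ps, which mark processed copies, were left out (6 rows). This gave 97 of the 18720 rows of the deposited tables, 85 of them subunits and 12 assembly factors. By complex there were 38 genes of complex I, 4 of complex II, 9 of complex III, 17 of complex IV and 17 of complex V (ATP synthase). Ndufa4 and its paralogue Ndufa4l2, whose symbols name complex I, were counted with complex IV, where the protein is now placed. All 97 had a mean normalised value of at least 10 over the 6 libraries and were tested.

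The R159 group held 3 liver libraries from male C57BL/6 mice given intraperitoneal injections of R159, for which the labels give a code name and no structure. The vehicle group held 3 liver libraries from male C57BL/6 mice injected in the same way with vehicle. All mice were 1 year old, ate a high-fat diet and were injected 2 times a week over 12 weeks, so diet and age are common to both groups and no animal on another diet enters the comparison. The labels tie the compound to an arm of signalling from gp130, a cytokine receptor subunit, and do not state that each library is a different mouse, so the p-values describe the spread between these libraries.

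The respiratory chain sits in the inner mitochondrial membrane. Complex I takes electrons from NADH and complex II takes them from succinate, both pass them to ubiquinone, complex III hands them on to cytochrome c, and complex IV reduces oxygen. Complexes I, III and IV pump protons as they do so, and ATP synthase lets the protons back to make ATP. Hepatocytes are rich in mitochondria and feed the chain mainly from fatty acid oxidation and the citric acid cycle. Complex II is encoded wholly in the nucleus. Each of the other complexes joins nuclear-encoded subunits to a few that are encoded in mitochondrial DNA.

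Values are the submitters' normalised estimated counts, and depth was 51.3 to 55.7 M reads in R159 libraries and 66.0 to 76.7 M reads in vehicle libraries. The R159 libraries were less alike (Pearson's r across genes 0.939 to 0.949 between pairs) than the vehicle libraries (0.979 to 0.986), and the pairs of R159 replicate 2 with vehicle libraries had the lowest values (0.910 to 0.918). Short transcripts were in general higher in R159 libraries: each gene's mean over the 6 libraries was subtracted, and Spearman's rho between the remainder and the length of the transcript, over 13667 coding genes, was -0.00638 for R159 replicate 1, -0.514 for replicate 2 and -0.376 for replicate 3, against 0.279 to 0.454 for the vehicle replicates. The 10 hepatocyte markers summed to between 4981326 and 8307411 in R159 libraries and between 4035302 and 6060861 in vehicle libraries, and 1 was called higher and 1 lower. Of the 9 erythroid markers with a value, 6 were called higher and none lower; their sum lay between 41559 and 61110 in R159 libraries and between 13987 and 22916 in vehicle libraries. With the transcript length trend described below removed, 2 erythroid markers were called higher. Of 6 macrophage markers, 2 were called lower and 4 were not called, and 2 of the 6 estimates were above 0. Among all genes tested, 12.8% were called higher and 14.2% lower. The part of these cell type markers in the results was not tested, and in whole liver a smaller number of cells of a type and less RNA per cell cannot be told apart.

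Most respiratory chain genes were higher in R159 livers. With limma over all 16594 genes tested and Benjamini-Hochberg adjustment, a gene was called where its adjusted p was below 0.05. Of the 97 genes, 65 were called higher and 1, Sdha, was called lower, while 31 were not called. Among all genes tested, 27.0% were called, 12.8% higher and 14.2% lower. The median log2 fold change (R159 minus vehicle, on log2 of the value plus 1) was 0.90 for the 97 genes and 0.001 for all genes tested, and 89 of the 97 estimates were above 0. In 73 of the 97 genes all 3 R159 values lay above all 3 vehicle values, which held for 22.5% of all genes tested. In 4, namely Sdha, Ndufs1, Atp5a1 and Atp5b, all R159 values lay below all vehicle values, which held for 23.6% of all genes tested. The 97 genes together made up 1.55%, 1.82% and 1.5% of all values in R159 replicates 1 to 3, against 1.23%, 1.15% and 1.09% in vehicle replicates 1 to 3, and these groups did not overlap.

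**Figure D1:**
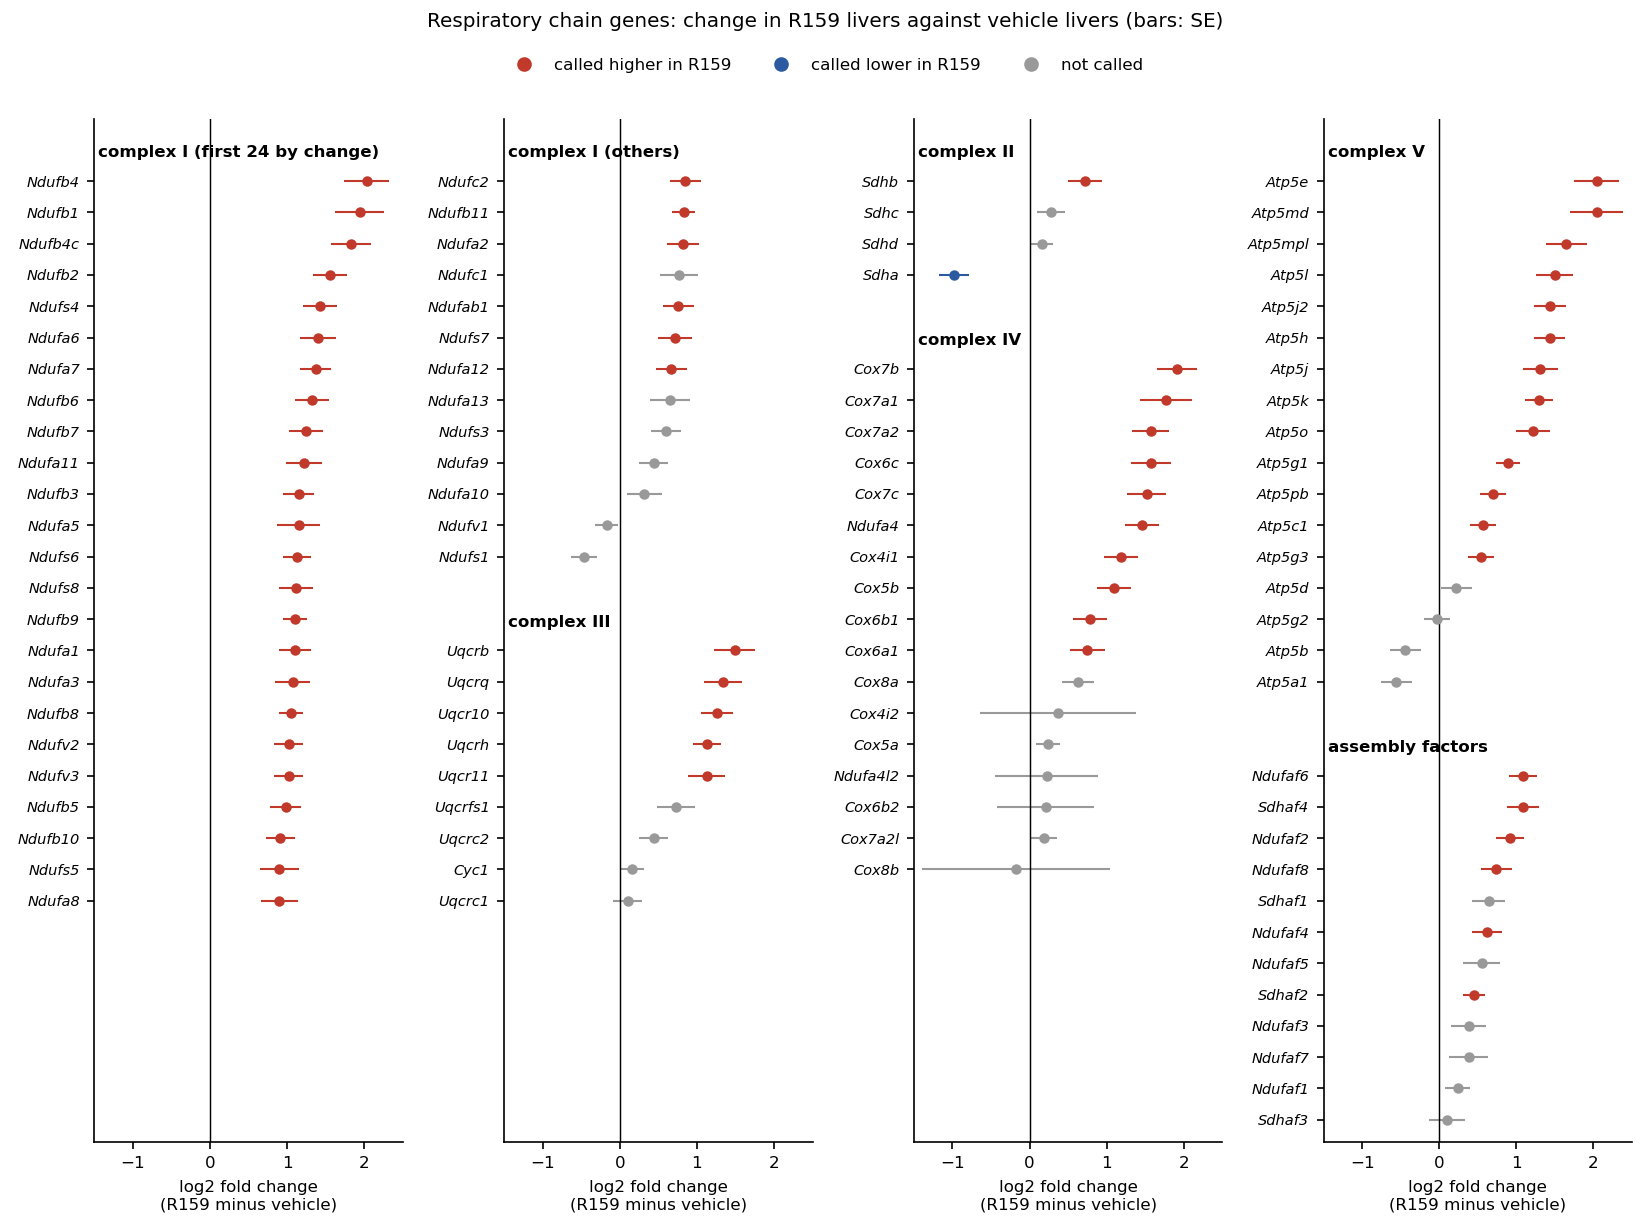
Log2 fold change (R159 minus vehicle, horizontal axis) of the respiratory chain genes, 1 row a gene, with 1 of the 97 not shown, grouped by complex and ordered by size; points are limma estimates and bars are standard errors. Red points are the 65 genes called higher, the blue point is Sdha, the only gene called lower, and grey points were not called.

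In complex I 30 of 38 genes were called higher (median log2 fold change 1.02), in complex III 5 of 9 (1.13), in complex IV 10 of 17 (0.78) and in complex V 13 of 17 (1.22). Complex II, with 1 gene higher and 1 lower of 4 (median 0.22), and the assembly factors, with 6 higher of 12 (0.58), had the lowest medians. Among the 8 genes with an estimate below 0, Ndufs1, Ndufv1, Sdha, Atp5a1 and Atp5b encode catalytic or core subunits, and Cox8b and Atp5g2 are forms of subunits that have other, more abundant forms.

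The size of the difference varied between the R159 libraries. The median log2 ratio to the vehicle mean over the 97 genes was 0.56 for R159 replicate 1, 1.26 for replicate 2 and 0.86 for replicate 3, while the vehicle replicates lay between -0.06 and 0.09. R159 replicate 2 held the highest of the 6 values in 81 of the 97 genes. Among the 65 genes called higher it was the top R159 library in 64, and R159 replicate 1 was the bottom R159 library in 52. How often these libraries ranked so over all genes tested was not counted. The normalised values of all genes summed to 55.6, 73.7 and 68.3 M in R159 replicates 1 to 3. In vehicle replicates 1 to 3 they summed to 54.8, 55.9 and 59.1 M. Without R159 replicate 2, 55 genes were called higher (9.50% of all genes tested were) and 2 lower, Sdha and Ndufs1, with a median of 0.78. Among all genes tested without R159 replicate 2, 10.7% were called lower. Of the 66 genes called, 49 were called with each of the 6 libraries left out in turn. The same share over all genes called was not counted.

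**Figure D2:**
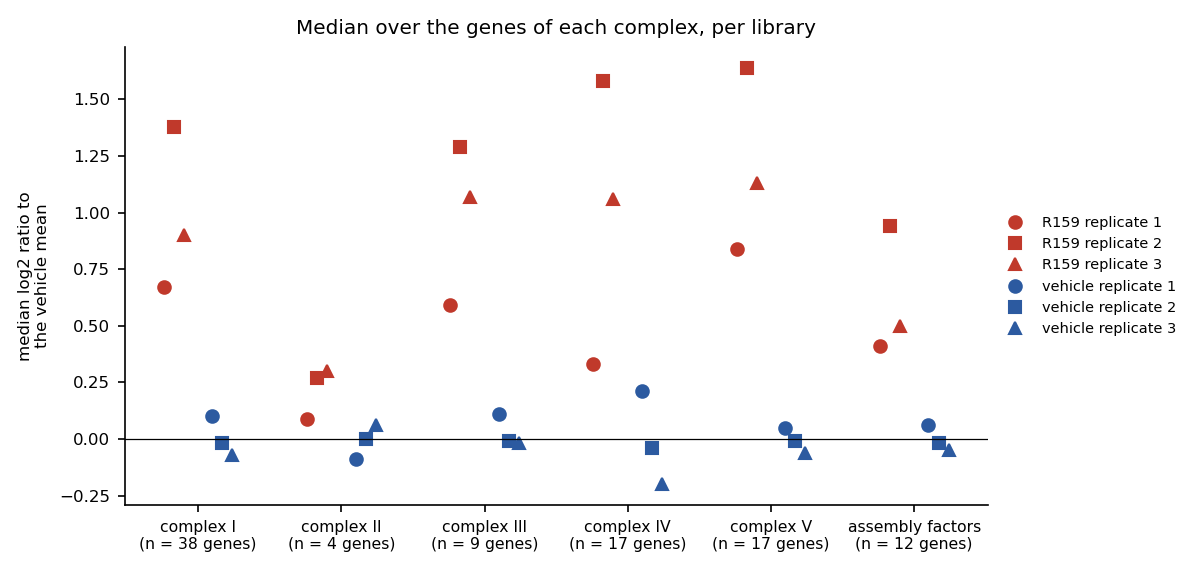
Median log2 ratio to the vehicle mean over the genes of each complex (vertical axis), for each R159 library (red) and each vehicle library (blue), with symbols for replicates. In complexes I, III, IV and V and in the assembly factors all 3 R159 libraries lie above all 3 vehicle libraries, with R159 replicate 2 highest and R159 replicate 1 lowest of the R159 libraries.

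Promoters were read for the members, whatever their direction of change, from RefSeq sequences of GRCm38.p6, a build other than the one the submitters list. They covered 250 bases before to 50 after each annotated start. Of the 97 genes, 80 had such a promoter, and in 55 of the 80 the bases 11 to 50 after the start were found unbroken in an annotated GENCODE transcript of the gene, so the start used may differ from the annotation in the others. In mammals, many respiratory chain genes are driven by the transcription factors NRF1, GABP (an ETS family factor) and YY1, so their motifs were searched on both strands: CGCATGCG for NRF1 (a core chosen after the data had been seen), CCGGAAG for GABP and AAGATGGC for YY1. Stretches of 100 bases that end at the start site are shown for 3 genes that were called higher and for Sdha, 5′ to 3′ on the minus strand, with motif matches in capitals:
Atp5k, chr5:108434400-108434499: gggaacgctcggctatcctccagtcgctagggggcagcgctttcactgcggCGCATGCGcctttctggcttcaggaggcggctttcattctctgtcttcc
Cox6a1, chr5:115348959-115349058: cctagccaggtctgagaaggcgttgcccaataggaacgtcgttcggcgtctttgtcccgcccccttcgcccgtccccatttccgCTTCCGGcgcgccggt
Uqcr11, chr10:80406822-80406921: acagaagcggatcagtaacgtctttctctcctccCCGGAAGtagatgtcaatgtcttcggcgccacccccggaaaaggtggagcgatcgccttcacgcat
Sdha, chr13:74350241-74350340: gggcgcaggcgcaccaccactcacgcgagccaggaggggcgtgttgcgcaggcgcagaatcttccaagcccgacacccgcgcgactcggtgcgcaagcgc
Atp5k, subunit e of ATP synthase, has an NRF1 match. Cox6a1, the common form of subunit 6a of complex IV, has a GABP match on the opposite strand, written there as CTTCCGG, and Uqcr11, a small subunit of complex III, has one on the strand shown. An NRF1 match of Uqcr11 spans its start site and so is cut off in this stretch. No match lies in the stretch of Sdha, which says only that these letters are not in this window. The genes shown were picked by hand, so they cannot show whether a motif goes with the direction of change. Counts over all members with a promoter are given next.

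The share with a motif was larger among these genes than among all genes with a promoter. A gene was counted where any of its promoters held the motif. The NRF1 motif was found for 11 of the 80 genes (13.8%), against 3.88% of the 11573 genes tested that had a promoter and 2.07% of all 27025 genes with one. For the GABP motif the shares were 22 of 80 (27.5%), 18.4% and 9.93%, and for the YY1 motif 11 of 80 (13.8%), 4.83% and 3.19%. At least 1 of the 3 motifs was found for 26 of the 56 genes called higher that had a promoter and for 11 of the 24 other members with one. Most YY1 matches of the members lay after the start site. These shares describe letters in the sequence and not binding.

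In complex I, the entry point for electrons from NADH, 3 of the 7 core subunits and 27 of the 31 accessory subunits were called higher and none was called lower. The core subunits carry the flavin and the iron-sulfur clusters. Ndufv1, which binds NADH and the flavin, had values of 6302, 7009 and 8004 in R159 replicates 1 to 3, against 7601, 7862 and 8442 in vehicle replicates 1 to 3. These groups overlapped (log2 fold change -0.17, SE 0.15, adjusted p = 0.430). Its partner Ndufv2, which holds an iron-sulfur cluster next to the flavin site, had 7230, 10624 and 7493 in R159 livers, against 4520, 4106 and 3731 in vehicle livers. Every R159 value was above every vehicle value (1.02, SE 0.19, adjusted p = 0.00671).

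Ndufs1, the largest core subunit and the bearer of several iron-sulfur clusters, went the other way. It had 3899, 5808 and 4788 in R159 livers, against 6291, 6597 and 6804 in vehicle livers. The groups did not overlap, yet the difference was not called (-0.46, SE 0.17, adjusted p = 0.0780). It was called without R159 replicate 2 (-0.60, adjusted p = 0.0341). The same held after rescaling to equal totals without mitochondrially encoded genes (-0.59, adjusted p = 0.0260) or with array weights (-0.45, adjusted p = 0.0372). With the length trends described below removed, it was smaller and not called. It was -0.37 by transcript length (adjusted p = 0.123) and -0.19 by coding length (adjusted p = 0.485). The ratio of Ndufs1 to Ndufv2 values was 0.539, 0.547 and 0.639 in R159 replicates 1 to 3, against 1.39, 1.61 and 1.82 in vehicle replicates 1 to 3. The lack of overlap of this ratio follows from the values above, since Ndufs1 was lower and Ndufv2 higher in every R159 library. It is no further result.

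Ndufs7 and Ndufs8, the iron-sulfur subunits of the arm that reaches ubiquinone, were both called higher. Ndufs8 had 5808, 10572 and 6868 in R159 livers, against 3379, 3589 and 3372 in vehicle livers (1.12, SE 0.22, adjusted p = 0.00799). Ndufs7 had 3846, 6996 and 5849 in R159 livers, against 3295, 3246 and 3316 in vehicle livers (0.72, SE 0.22, adjusted p = 0.0380). R159 replicate 1 lay close above the vehicle range for Ndufs7, and the call was lost with any library other than R159 replicate 1 left out (adjusted p 0.0928 to 0.11). Ndufs3, another core subunit, lay just outside the threshold (0.60, SE 0.20, adjusted p = 0.0509), although its R159 values did not overlap its vehicle values. It was called without R159 replicate 1 (0.82, adjusted p = 0.00548) and with quantile normalisation (0.63, adjusted p = 0.0238).

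All 12 Ndufb genes, accessory subunits of the membrane arm, were called higher, with log2 fold changes from 0.83 to 2.03 and a median of 1.20. Ndufb4 had 3992, 7696 and 3611 in R159 livers, against 1480, 1132 and 966 in vehicle livers (2.03, SE 0.29, adjusted p = 0.00382), a 4.09-fold difference. Ndufb4c, a copy of it, had 3407, 6987 and 3684 in R159 livers, against 1320, 1261 and 1160 in vehicle livers (1.83, SE 0.26). The ratio of the copy to Ndufb4 was between 0.854 and 1.02 in R159 libraries and between 0.892 and 1.20 in vehicle libraries. Reads of such near-identical copies can be shared, so these 2 rows are uncertain and may be the same signal counted in both.

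Ndufb2 and Ndufb9, also of the membrane arm, were higher without overlap. Ndufb2 had 4120, 6679 and 3904 in R159 livers, against 1871, 1599 and 1427 in vehicle livers (1.55, SE 0.22, adjusted p = 0.00394). Ndufb9 had 17673, 20549 and 17142 in R159 livers, against 9284, 8251 and 8234 in vehicle livers (1.10, SE 0.16, adjusted p = 0.00386). Ndufb9 was the member of complex I with the largest mean value, and its 3 R159 libraries were closer together than those of most members. Ndufb2 overlaps exons of other genes on both strands, Gm42420 on its own strand and Braf and Gm16272 on the other.

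Among the 12 Ndufa genes of complex I, 9 were called higher, and Ndufa9, Ndufa10 and Ndufa13 were not. Ndufa7 had 6788, 9130 and 6485 in R159 livers, against 3547, 2483 and 2646 in vehicle livers (1.37, SE 0.20, adjusted p = 0.00399). Ndufa10, one of the longer accessory subunits, averaged 12521 ± 3725 in R159 livers and 9725 ± 718 in vehicle livers, with overlapping groups (0.32, adjusted p = 0.317), and was called without R159 replicate 1 (0.57, adjusted p = 0.0292). Ndufab1, the acyl carrier protein of mitochondria, which also serves fatty acid and lipoate synthesis, had 4642, 7630 and 4828 in R159 livers, against 3357, 3260 and 3203 in vehicle livers. It was called higher (0.76, SE 0.20, adjusted p = 0.0247), but not with any 1 of the vehicle libraries left out (adjusted p 0.0651 to 0.0820). Ndufs4, an accessory subunit whose loss causes Leigh syndrome in humans, averaged 7981 ± 1913 in R159 livers and 2973 ± 639 in vehicle livers (1.42, SE 0.22, adjusted p = 0.00431).

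Complex II, or succinate dehydrogenase, was split. Sdha, the flavoprotein that oxidises succinate, was the only member called lower. It had 18417, 14132 and 18216 in R159 livers, against 29921, 32324 and 37748 in vehicle livers. The highest R159 value was well below the lowest vehicle value, and the level was 1.97-fold lower in R159 livers (log2 fold change -0.98, SE 0.19, adjusted p = 0.00790). Sdhb, the iron-sulfur subunit that binds Sdha, had 8670, 15494 and 12698 in R159 livers, against 6601, 7806 and 7411 in vehicle livers. Sdhb was called higher without overlap (0.72, SE 0.22, adjusted p = 0.0394), but was not called with any library other than R159 replicate 1 left out (adjusted p 0.0921 to 0.12).

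The pair of membrane anchors of complex II was not called. Sdhc had 9254, 13882 and 12842 in R159 livers, against 9494, 9928 and 9797 in vehicle livers (0.28, SE 0.18, adjusted p = 0.284). Without R159 replicate 1, its lowest R159 library, Sdhc was called higher (0.46, adjusted p = 0.0348). Sdhd had 9353, 8079 and 9083 in R159 livers, against 7906, 7457 and 8355 in vehicle livers (0.16, SE 0.15, adjusted p = 0.440). Both anchors thus overlapped between the groups. The ratio of Sdha to Sdhb values was 2.12, 0.912 and 1.43 in R159 replicates 1 to 3, against 4.53, 4.14 and 5.09 in vehicle replicates 1 to 3, so that the lowest vehicle ratio was nearly 2 times the highest R159 ratio. That the ratios do not overlap follows from Sdha being lower and Sdhb higher in every R159 library.

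**Figure D3:**
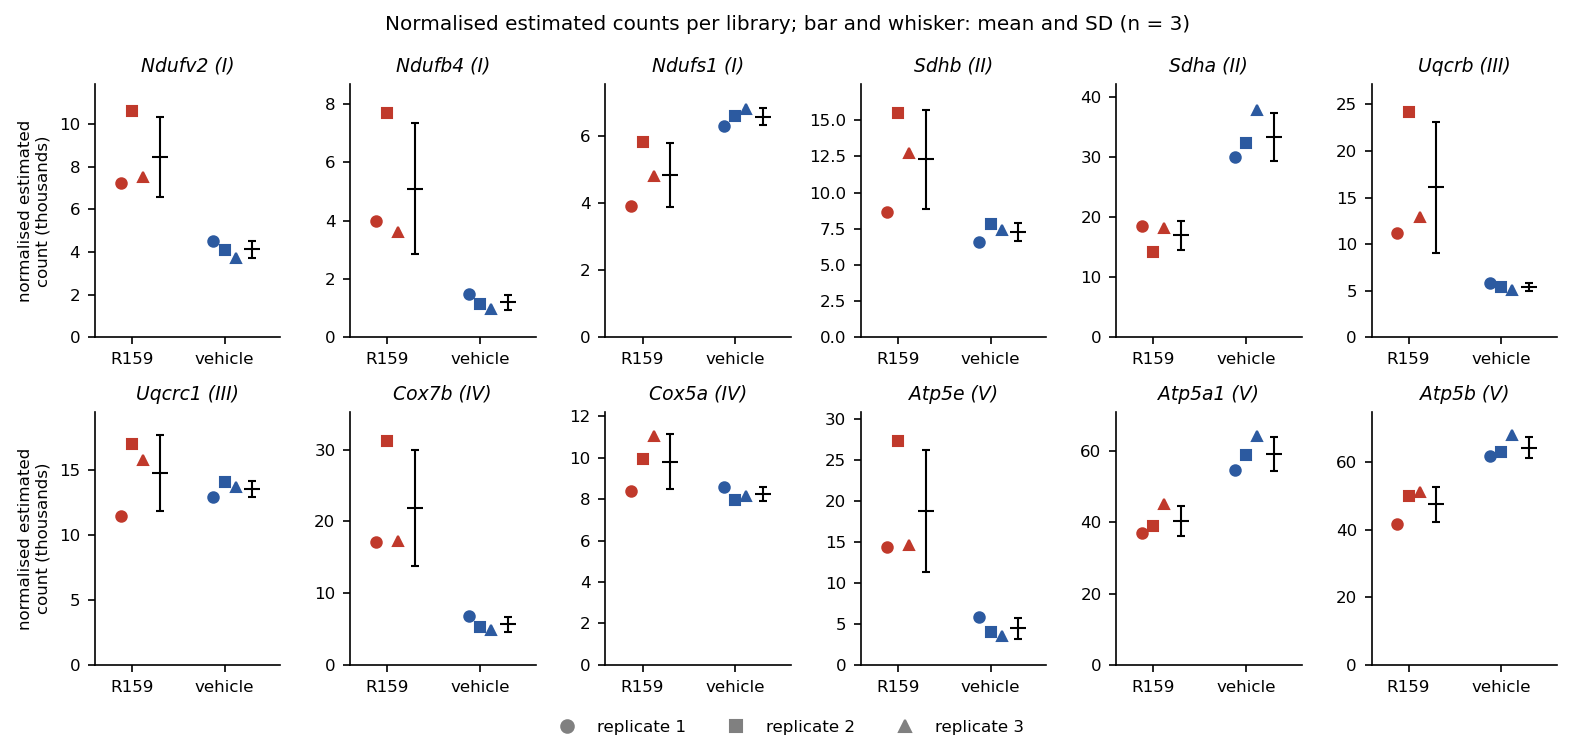
Normalised estimated counts (vertical axes in kilo-counts, each starting at 0) of 12 respiratory chain genes in the 3 R159 libraries (red) and the 3 vehicle libraries (blue), with the complex in brackets; symbols mark replicates, and the bar and whisker beside each group are its mean and SD (n = 3). Sdha, Ndufs1, Atp5a1 and Atp5b lie lower in all R159 libraries, Uqcrc1 and Cox5a overlap, and the other 6 lie higher in all R159 libraries.

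In complex III all 5 small subunits were called higher and none of the 4 large or catalytic subunits was. Uqcrb, which contributes to the ubiquinone-binding part of the complex, had 11154, 24174 and 12962 in R159 livers, against 5834, 5379 and 5028 in vehicle livers (1.49, SE 0.27, adjusted p = 0.00650). Uqcrq had 21992, 43652 and 29711 in R159 livers, against 13130, 11243 and 11974 in vehicle livers (1.34, SE 0.25, adjusted p = 0.00701). Uqcrh, the hinge protein at the cytochrome c side, had 12639, 16465 and 15615 in R159 livers, against 8087, 6397 and 5955 in vehicle livers (1.13, SE 0.18, adjusted p = 0.00486). In all of these the vehicle libraries were close together and every R159 library was above them. The remaining small subunits were also higher, Uqcr10 at 11505 ± 3066 in R159 livers and 4743 ± 745 in vehicle livers (1.26, adjusted p = 0.00527) and Uqcr11 at 14825 ± 4694 in R159 livers and 6555 ± 835 in vehicle livers (1.13, adjusted p = 0.0116).

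The electron carriers and core proteins of complex III differed less. Uqcrfs1, the Rieske iron-sulfur protein, had 10382, 21724 and 14066 in R159 livers, against 8409, 9317 and 8896 in vehicle livers, and although the groups did not overlap it was not called (0.73, SE 0.25, adjusted p = 0.0581). It was called with the replicate number as a block (adjusted p = 0.0398), and without R159 replicate 1 (0.98, adjusted p = 0.0116). Cyc1, the cytochrome c1 subunit, had 8188, 10670 and 10030 in R159 livers, against 8092, 8814 and 8782 in vehicle livers (0.16, SE 0.16, adjusted p = 0.475). Of the core proteins, Uqcrc1 had 11440, 17035 and 15820 in R159 livers, against 12913, 14122 and 13689 in vehicle livers (0.10, SE 0.19, adjusted p = 0.713). Its groups overlapped in both directions. Uqcrc2 had 13884, 20640 and 14976 in R159 livers, against 11548, 12576 and 11859 in vehicle livers, above the vehicle range in each library but not called (0.44, SE 0.19, adjusted p = 0.109). Without R159 replicate 1, Uqcrc2 was called (0.55, adjusted p = 0.0474).

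In complex IV, cytochrome c oxidase, 9 of the 11 common subunits were called higher. Its catalytic subunits are encoded in mitochondrial DNA, and the nuclear subunits surround them. Cox7b had 17139, 31259 and 17276 in R159 livers, against 6839, 5322 and 4814 in vehicle livers (1.91, SE 0.26, adjusted p = 0.00360), a 3.75-fold difference and the smallest adjusted p of all members. Cox6c had 17113, 34440 and 20444 in R159 livers, against 9142, 7623 and 6565 in vehicle livers (1.57, SE 0.26, adjusted p = 0.00518). Cox7c had 16494, 31466 and 19628 in R159 livers, against 9185, 7180 and 6480 in vehicle livers (1.52, SE 0.25, adjusted p = 0.00512). For these genes even the lowest R159 library exceeded the highest vehicle library by over 1.5 times.

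Cox4i1, the common form of subunit 4, was the member of complex IV with the largest mean value. It had 34834, 54119 and 37930 in R159 livers, against 20998, 18000 and 15828 in vehicle livers (1.19, SE 0.22, adjusted p = 0.00707). Ndufa4 had 26619, 37190 and 25873 in R159 livers, against 13538, 10440 and 8672 in vehicle livers (1.46, SE 0.22, adjusted p = 0.00436). Per kilobase of transcript the mean levels of these genes were close to each other in R159 livers (56019 for Cox4i1 and 56297 for Ndufa4) and in vehicle livers (24205 and 20496), and no other member had a larger mean level per kilobase in R159 livers. Cox5b had 14224, 25709 and 17079 in R159 livers, against 9007, 8429 and 8341 in vehicle livers (1.10, SE 0.22, adjusted p = 0.00907).

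Cox5a and Cox8a were the common subunits that were not called. Cox5a, which lies on the matrix side of the complex, had 8401, 9951 and 11046 in R159 livers, against 8602, 7977 and 8168 in vehicle livers, with R159 replicate 1 inside the vehicle range (0.24, SE 0.16, adjusted p = 0.285). Cox8a, the common form of subunit 8, had 9748, 16298 and 15670 in R159 livers, against 8867, 8688 and 8769 in vehicle livers (0.63, SE 0.21, adjusted p = 0.0550), and was called without R159 replicate 1 (0.86, adjusted p = 0.00497). The ratio of Cox5a to Cox7b values was 0.490, 0.318 and 0.639 in R159 replicates 1 to 3, against 1.26, 1.5 and 1.7 in vehicle replicates 1 to 3. Cox5a was thus below Cox7b in every R159 library and above it in every vehicle library, as read counts that are not corrected for length.

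Subunits 6a and 7a of complex IV have common and tissue-bound forms. Cox6a1, the common form of 6a, had 17540, 31830 and 25934 in R159 livers, against 14938, 14599 and 13832 in vehicle livers (0.75, SE 0.23, adjusted p = 0.0379). Its call was lost with any library other than R159 replicate 1 left out (adjusted p 0.0865 to 0.111). Cox7a2, the common form of 7a, had 10132, 17066 and 11593 in R159 livers, against 5546, 3839 and 3580 in vehicle livers (1.57, SE 0.24, adjusted p = 0.00435). Cox7a1, the form of heart, skeletal muscle and brown fat, was at a low level, with 220 and 175 in R159 replicates 1 and 2 and a mean of 185 ± 31.4 (SD, n = 3) in R159 livers, against 74.7, 53.9 and 36.9 (mean 55.2 ± 19) in vehicle livers, and the groups did not overlap. It was called higher (1.77, SE 0.34, adjusted p = 0.00787) and was highest in R159 replicate 1, unlike nearly all other members. As a share of the sum of both 7a forms, Cox7a1 was 2.13%, 1.02% and 1.36% in R159 replicates 1 to 3, against 1.33%, 1.39% and 1.02% in vehicle replicates 1 to 3, and these groups overlapped.

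Cox7a1 is a marker of other tissues, and other markers of those tissues were set beside it. Of 10 striated muscle markers 3 had a value (Mylpf, Tnnt2 and Acta1), and their sum was 76.9, 102 and 91.9 in R159 livers, against 35.7, 40.1 and 21.8 in vehicle livers. Mylpf was called higher (1.61, adjusted p = 0.0243), though not without R159 replicate 2 or any 1 vehicle library (adjusted p 0.0565 to 0.0839), and Acta1 was at 0 in R159 replicate 3. Of 6 brown adipocyte markers 4 had a value, and Ucp1 and Dio2 had none. Cox7a1 itself and Elovl3 were called higher, while Cidea and Cox8b were not. The part of such cells in the level of Cox7a1 was not tested.

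The other tissue forms of complex IV were not called, and Cox8b and Cox4i2 were near the lower limit of the measured range. Cox8b, the heart and muscle form of subunit 8, had 2.17, 41.7 and 1.23 in R159 livers, against 7.47, 10.9 and 3.35 in vehicle livers. Cox4i2, the lung form of subunit 4, had 5.42, 2.88 and 31.9 in R159 livers, against 13.3, 5.10 and 3.35 in vehicle livers. Both had a single R159 library far above the rest, a different one in each case, and neither was called (-0.18 with SE 1.22 and 0.37 with SE 1.01). Ndufa4l2, the paralogue of Ndufa4 that is induced in hypoxia, had 73.7, 35.9 and 315 in R159 livers, against 80.6, 68.5 and 95.5 in vehicle livers (0.22, SE 0.67, adjusted p = 0.826). R159 replicate 3 thus held the top value of both Cox4i2 and Ndufa4l2. Without that library, the estimates were -0.54 for Cox4i2 and -0.64 for Ndufa4l2, and neither was called. Cox7a2l, which has been tied to supercomplexes of complexes III and IV, had 4238, 4572 and 5821 in R159 livers, against 4509, 3830 and 4377 in vehicle livers (0.19, SE 0.17, adjusted p = 0.415). Whether its form in these mice has that part was not tested.

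ATP synthase showed the widest spread between its own subunits. Its F1 head holds subunits alpha and beta, which make ATP, around a central stalk of gamma, delta and epsilon. Atp5a1 (alpha) had 37055, 38842 and 45135 in R159 livers, against 54602, 58828 and 64152 in vehicle livers. Atp5b (beta), the member with the largest mean value of all 97, had 41642, 49909 and 51144 in R159 livers, against 61886, 63003 and 67865 in vehicle livers. Both were lower in every R159 library than in any vehicle library, but were not called (-0.56, SE 0.20, adjusted p = 0.0624 for Atp5a1, and -0.44, SE 0.20, adjusted p = 0.128 for Atp5b). With quantile normalisation both were called lower (-0.63 with adjusted p = 0.0184, and -0.50 with adjusted p = 0.0388). The same held after rescaling to equal totals without mitochondrially encoded genes (-0.69 with adjusted p = 0.0204, and -0.57 with adjusted p = 0.0302). Neither was called with the length trends described below removed. By transcript length Atp5a1 was at -0.50 (adjusted p = 0.0614) and Atp5b at -0.52 (adjusted p = 0.0527). By coding length they were at -0.37 (adjusted p = 0.152) and -0.26 (adjusted p = 0.309).

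Atp5e (epsilon), of the F1 part, and Atp5md, a membrane subunit, had the largest estimates of the 97 genes, both 2.04. Atp5e had 14358, 27381 and 14614 in R159 livers, against 5830, 4058 and 3474 in vehicle livers, a 4.12-fold difference without overlap (2.04, SE 0.29, adjusted p = 0.00382). The ratio of Atp5b to Atp5e values was 2.9, 1.82 and 3.5 in R159 replicates 1 to 3, against 10.6, 15.5 and 19.5 in vehicle replicates 1 to 3. That these ratios do not overlap follows from Atp5b being lower and Atp5e higher in every R159 library. Per kilobase of transcript Atp5e had a mean level of 44618 in R159 livers and 10580 in vehicle livers, and Atp5b 24825 in R159 livers and 33534 in vehicle livers, so their order was turned round between the groups. Of the remaining F1 subunits, Atp5c1 (gamma) was called higher (0.57, SE 0.17, adjusted p = 0.0396) and Atp5d (delta) was not (0.22, SE 0.20, adjusted p = 0.422). The call of Atp5c1 was lost with any library other than R159 replicate 1 left out (adjusted p 0.0657 to 0.140), with quantile normalisation (0.0542), with equal totals (0.0731) and with the replicate block (0.0577).

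All 9 subunits of the peripheral stalk and the membrane part of ATP synthase were called higher, with log2 fold changes from 0.70 to 2.04 and a median of 1.43. Atp5h (subunit d of the peripheral stalk) had 13739, 22428 and 15728 in R159 livers, against 6680, 6061 and 6096 in vehicle livers (1.43, SE 0.20, adjusted p = 0.00382). Atp5k (subunit e), whose promoter with an NRF1 match is shown above, had 8971, 13335 and 9532 in R159 livers, against 4563, 4308 and 3995 in vehicle livers (1.29, SE 0.18, adjusted p = 0.00382). Subunits e and g join ATP synthases into dimers. Atp5l (subunit g) had 15013, 26120 and 15853 in R159 livers, against 7709, 6194 and 5737 in vehicle livers (1.5, SE 0.24, adjusted p = 0.00468). Atp5j2 (subunit f) had 13277, 21229 and 14732 in R159 livers, against 6597, 6090 and 5136 in vehicle livers (1.44, SE 0.21, adjusted p = 0.00391). In each of these genes R159 replicates 1 and 3 were close to each other and replicate 2 was higher.

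The c ring of ATP synthase is made of 1 protein that 3 genes encode. Atp5g1 had 12340, 16017 and 13103 in R159 livers, against 7150, 7811 and 7245 in vehicle livers (0.89, SE 0.16, adjusted p = 0.00650). Atp5g3 had 26310, 31538 and 31479 in R159 livers, against 20966, 19730 and 20477 in vehicle livers (0.54, SE 0.17, adjusted p = 0.0429), and its call was lost with any library other than R159 replicate 1 left out (adjusted p 0.0788 to 0.176) and with the replicate number as a block (adjusted p = 0.0655). Atp5g2 had 2409, 2175 and 3058 in R159 livers, against 2584, 2474 and 2654 in vehicle livers, and did not differ beyond the spread of its R159 libraries (-0.03, SE 0.17, adjusted p = 0.916). Atp5g2 thus made up 5.87%, 4.37% and 6.42% of the c ring values in R159 replicates 1 to 3, against 8.42%, 8.24% and 8.74% in vehicle replicates 1 to 3. The share of Atp5g1 was 30.1%, 32.2% and 27.5% in R159 replicates and 23.3%, 26.0% and 23.8% in vehicle replicates, without overlap. Atp5g3 held the rest, 63.4% to 66.1% in R159 livers and 65.7% to 68.3% in vehicle livers.

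Of the 12 assembly factors, which build the complexes and are not part of them, 6 were called higher: Ndufaf6, Ndufaf2, Ndufaf8 and Ndufaf4 for complex I, and Sdhaf4 and Sdhaf2 for complex II. Sdhaf1 had the largest mean value of the 12. Ndufaf6 had 937, 1179 and 918 in R159 livers, against 475, 512 and 432 in vehicle livers (1.09, SE 0.18, adjusted p = 0.00497). Ndufaf2, a paralogue of Ndufa12 that stands in its place during assembly, had 1004, 1136 and 1071 in R159 livers, against 661, 550 and 490 in vehicle livers (0.92, SE 0.18, adjusted p = 0.00768). Unlike in most subunits, R159 replicate 2 was close to the other R159 libraries in both genes. Ndufaf8 had 721, 1091 and 927 in R159 livers, against 600, 506 and 513 in vehicle livers (0.74, adjusted p = 0.0257), and Ndufaf4 had 1297, 1835 and 1427 in R159 livers, against 1027, 1109 and 823 in vehicle livers (0.62, adjusted p = 0.0422). Both lost their call with any library other than R159 replicate 1 left out (adjusted p 0.0532 to 0.102 for Ndufaf8 and 0.0687 to 0.148 for Ndufaf4). With 1 of those 5 libraries left out, 3 assembly factors were called higher in each case, and 8 were without R159 replicate 1. Of all genes tested, 9.5% were called higher without R159 replicate 2. The share was 5.54% without vehicle replicate 2 and 6.42% without vehicle replicate 3, against 12.8% with all libraries. For the other libraries it was not counted, so these changes in count are no result about the assembly factors.

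The assembly factors of complex II serve different subunits. Sdhaf4 and Sdhaf2 act on Sdha, the subunit that was lower, Sdhaf2 by helping to attach its flavin. Sdhaf4 had 947, 1280 and 787 in R159 livers, against 516, 421 and 452 in vehicle livers (1.09, SE 0.21, adjusted p = 0.00825). Sdhaf2 averaged 1494 ± 61.8 in R159 livers and 1095 ± 4.07 in vehicle livers (0.45, SE 0.14, adjusted p = 0.0454), but was not called with any library other than R159 replicate 1 left out (adjusted p 0.0754 to 0.165), with equal totals (0.207) or with the replicate block (0.101). Sdhaf1, which serves the iron-sulfur clusters of Sdhb, had 1303, 2160 and 1523 in R159 livers, against 1227, 942 and 982 in vehicle livers. It was just outside the threshold (0.64, SE 0.21, adjusted p = 0.0546) and was called without R159 replicate 1 (0.80, adjusted p = 0.0232). Sdhaf3, with a like task, averaged 281 ± 64.9 in R159 livers and 257 ± 4.91 in vehicle livers and was not called (0.10, adjusted p = 0.767; -0.06 without R159 replicate 1).

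Short members had larger differences than long ones. Across the 95 genes with a length in the GENCODE vM21 annotation, Spearman's rho between the log2 fold change and transcript length was -0.554, and across 13667 coding genes it was -0.443 (across genes, which share the 6 libraries). Of 25 members with transcripts of at most 600 nucleotides 21 were called higher (84.0%), against 108 of all 180 coding genes of that class. Of 20 members up to 800 nucleotides 17 were (85.0%, against 54.1% of all), of 21 up to 1200 nucleotides 16 (76.2%, against 35.3%), and of 17 up to 2000 nucleotides 4 (23.5%, against 13.2%). Of the 9 members up to 3000 nucleotides 4 were called higher (against 8.54%), and of 3 longer ones 1 (against 4.02%).

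By coding length, a measure added after the data had been seen, rho was -0.568 across the members and -0.34 across all coding genes. The 8 members with an estimate below 0 had a median coding length of 1490 nucleotides, against 360 nucleotides for the 63 genes called higher that had a length. Of 25 members with at most 300 coding nucleotides 20 were called higher (80.0%), against 43.0% of all 302 coding genes of that class. Of 27 members from above 300 to 450 nucleotides 21 were (77.8%, against 38.3% of all), of 18 up to 600 nucleotides 13 (72.2%, against 23.6%), and of 9 up to 900 nucleotides 7 (77.8%, against 14.4%). Above 900 nucleotides, 1 of 6 members up to 1200 nucleotides (16.7%, against 8.27%) and 1 of 10 longer members (against 5.59%) were called higher. The last class held Sdha, Ndufs1, Atp5a1 and Atp5b, and 22.4% of all its coding genes were called lower.

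**Figure D4:**
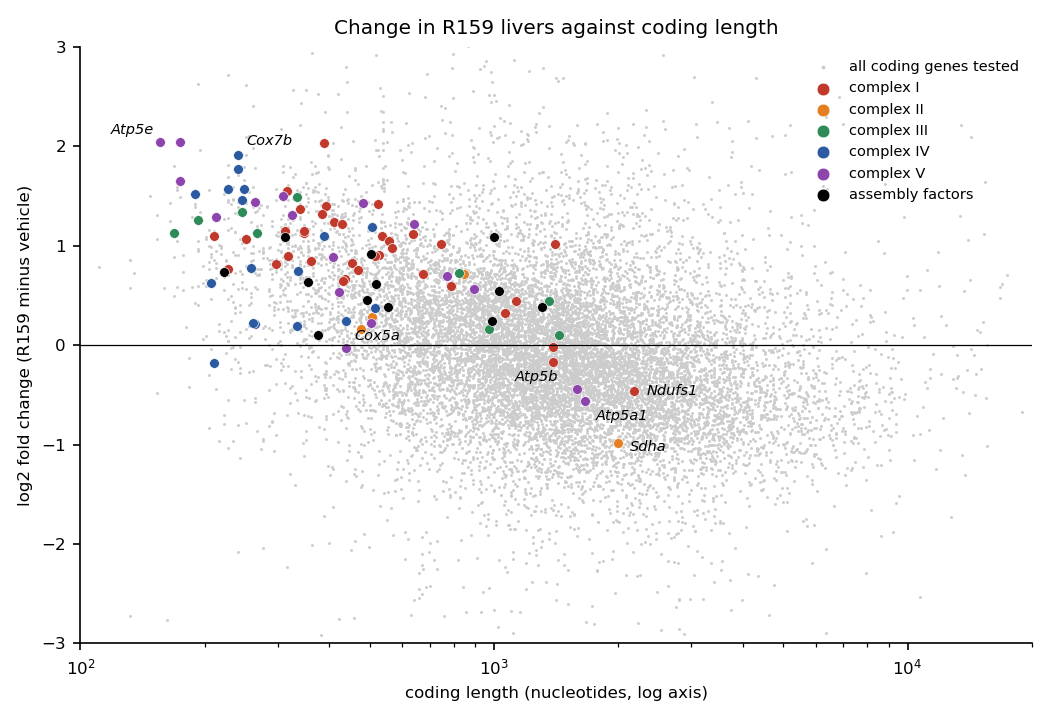
Log2 fold change (R159 minus vehicle, vertical axis) against coding length in nucleotides (horizontal log axis) for 95 respiratory chain genes coloured by complex and for all coding genes tested in grey; genes beyond 3 in either direction are not drawn. Short members such as Atp5e and Cox7b lie highest and long ones such as Sdha, Ndufs1, Atp5a1 and Atp5b lie below 0, and the grey points slope the same way.

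Fewer members were called after the trend with transcript length had been removed from each library. Of the 95 genes with a length, 27 were then called higher (9.44% of the 13667 coding genes were) and 3 lower (9.34% of the coding genes were), with a median of 0.19. Of the 65 genes called higher before, 26 were called higher again. By complex these counts higher were 8 of 36 in complex I, 0 of 4 in complex II, 1 of 9 in complex III, 4 of 17 in complex IV, 10 of 17 in complex V and 4 of 12 assembly factors. In complex I they were Ndufb4, Ndufb2, Ndufs4, Ndufv2, Ndufv3, Ndufs8, Ndufb5 and Ndufab1, and in complex III Uqcrq. In complex IV Cox7b (1.32, adjusted p = 0.00451), Cox7a2, Cox7c and Cox6c remained. Complex V kept 8 of its 9 stalk and membrane subunits, all but Atp5k, together with Atp5e (0.79, adjusted p = 0.00963) and Atp5g1 (1.00, adjusted p = 0.00467). Sdha stayed lower (-0.82, adjusted p = 0.0126). Cox5a (-0.70, adjusted p = 0.0246) and Atp5g2 (-1.04, adjusted p = 0.0227) were called lower with this correction and not in the uncorrected comparison.

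With coding length in place of transcript length, which was chosen after the data had been seen, 45 of 95 genes were called higher (11.6% of coding genes were) and 1, Sdha, lower (12.0% were), with a median of 0.50. In this setting all 10 Ndufb genes with a length and all 9 stalk and membrane subunits of ATP synthase were called higher. A set of 21 genes was called higher in the uncorrected comparison and was called with each library left out and with either kind of length removed. How many of all coding genes met these conditions was not counted. Whether the members differ because of their length was not tested, since length and kind of subunit go together in these complexes.

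**Figure D5:**
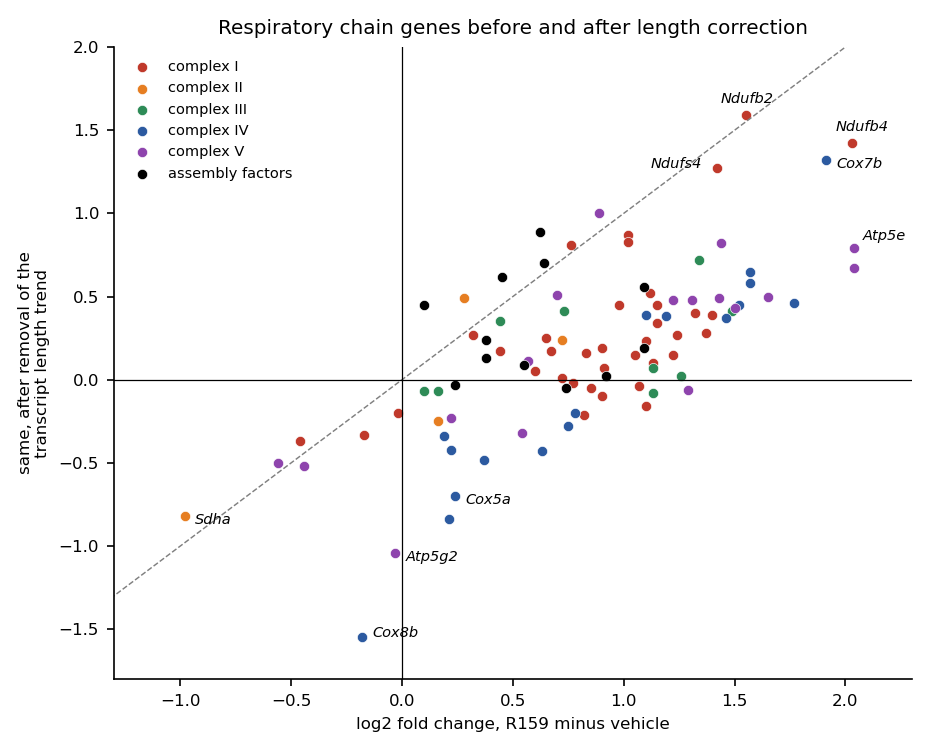
Log2 fold change (R159 minus vehicle) of 95 respiratory chain genes before (horizontal axis) and after (vertical axis) removal of the trend with transcript length, coloured by complex; the dashed line marks equal values. Most points lie below the dashed line, and Sdha, Cox5a and Atp5g2 are called lower after removal.

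Subunits of the same complexes that are encoded in mitochondrial DNA were also higher in part. Of 13, 5 were called higher (mt-Atp6, mt-Co2, mt-Co3, mt-Nd3 and mt-Nd4) and none lower, against 12.8% and 14.2% of all genes tested. In 12 all R159 values lay above all vehicle values, which held for 22.5% of all genes tested. The largest estimate was that of mt-Nd3, a complex I subunit, with 18657, 68688 and 26829 in R159 livers, against 15353, 9287 and 8892 in vehicle livers (1.59, SE 0.43, adjusted p = 0.0273), and it was not called without vehicle replicate 2 (adjusted p = 0.0806) or 3 (adjusted p = 0.0905). Mitochondrially encoded transcripts held 10.6%, 13.6% and 8.42% of all values in R159 replicates 1 to 3, against 7.43%, 5.01% and 5.29% in vehicle replicates 1 to 3. The count of 5 was 1 without R159 replicate 2 or vehicle replicate 1 and 0 without vehicle replicate 2 or 3. Of all genes tested, 9.5% were called higher without R159 replicate 2. Without vehicle replicate 2 the share was 5.54%, and without vehicle replicate 3 it was 6.42%. With the transcript length trend removed none was higher, and mt-Atp8 (-1.09, adjusted p = 0.00514) and mt-Nd4l (-1.12, adjusted p = 0.0113) were lower.

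Assembly factors whose symbols fall outside the rule, together with cytochrome c and its lyase, showed changes in both directions. Of 50 tested, 20 were called higher and 5 lower, against 12.8% and 14.2% of all genes tested, and without vehicle replicate 3 the numbers were 12 and 3. Without vehicle replicate 1 they were 17 and 3, and without vehicle replicate 2 they were 14 and 3. Of all genes tested, 6.42% were called higher and 6.74% lower without vehicle replicate 3, and 5.54% and 5.63% without vehicle replicate 2. These shares were not counted without vehicle replicate 1. Those of complex IV were the most numerous, 14 higher and 4 lower of 26. Cox16, which takes part in building the catalytic core, had 2432, 3947 and 2369 in R159 livers, against 1232, 964 and 924 in vehicle livers (1.46, SE 0.23, adjusted p = 0.00454). Pet100 had 1958, 3964 and 1666 in R159 livers, against 789, 668 and 561 in vehicle livers (1.82, SE 0.31, adjusted p = 0.00527). Taco1, an activator of the translation of mt-Co1, had 535, 372 and 438 in R159 livers, against 1016, 953 and 1327 in vehicle livers (-1.29, SE 0.21, adjusted p = 0.00486). Cox15, of heme A synthesis, Coa5 and Lrpprc, which stabilises mitochondrial mRNAs, were also lower (-0.82, -0.79 and -0.54), of which Lrpprc was not called with any 1 vehicle library left out (adjusted p 0.0677 to 0.112). Slirp, the protein partner of Lrpprc, was higher (1.36, SE 0.25, adjusted p = 0.00650).

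For complex I, 3 such factors were higher (Dmac2, Dmac1 and Tmem126a) and Nubpl, which delivers iron-sulfur clusters, was lower (-0.96, SE 0.29, adjusted p = 0.0375), of 12. Nubpl was not called without R159 replicate 2 or any 1 vehicle library (adjusted p 0.0515 to 0.113). Complex III had 2 of 6 higher, Uqcc2 (1.42, adjusted p = 0.0134) and Uqcc3 (1.16, adjusted p = 0.0164), neither of which was called without vehicle replicate 3 (0.0521 and 0.0580), and complex V had 1 of 4, Tmem242 (0.99, adjusted p = 0.00708). Cycs, cytochrome c itself, had 7274, 12970 and 6563 in R159 livers, against 5642, 5746 and 4614 in vehicle livers, without overlap and not called (0.68, SE 0.25, adjusted p = 0.0729), though it was called without R159 replicate 3 (adjusted p = 0.0485).

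Of 20 regulators of mitochondrial biogenesis, 3 were called higher (Ssbp1, Mterf1a and Polg2) and 1, Gabpa, lower, which is near the shares of all genes tested (12.8% higher and 14.2% lower) and no result about the list. Ppargc1a, the coactivator that drives mitochondrial biogenesis in many tissues, had 724, 266 and 397 in R159 livers, against 411, 553 and 521 in vehicle livers (-0.21, SE 0.34, adjusted p = 0.668; 0.13 without R159 replicate 2), and Ppargc1b was not called either (-0.25, SE 0.26, adjusted p = 0.506). Gabpa, the DNA-binding subunit of GABP, whose motif is in the promoters of Cox6a1 and Uqcr11 shown above, had 1365, 887 and 1141 in R159 livers, against 1846, 2193 and 2309 in vehicle livers (-0.92, SE 0.19, adjusted p = 0.0107). Its exons overlap those of Atp5j, a stalk subunit that was called higher, on the other strand in the annotation. Nrf1 had 465, 456 and 464 in R159 livers, against 532, 583 and 574 in vehicle livers, without overlap and not called (-0.28, SE 0.17, adjusted p = 0.229). Esrra, a nuclear receptor that acts with Ppargc1a, was not called (0.38, SE 0.21, adjusted p = 0.188), and neither was Tfam, which packs and transcribes mitochondrial DNA (0.33, SE 0.19, adjusted p = 0.206). Ssbp1, which binds single-stranded mitochondrial DNA, had 2250, 3550 and 2025 in R159 livers, against 986, 993 and 844 in vehicle livers (1.43, SE 0.22, adjusted p = 0.00445).

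Among genes of mitochondrial mass and import, 3 of 17 were called higher and 2 lower, near the 12.8% and 14.2% of all genes tested. Cs, citrate synthase, a common measure of mitochondrial content, had 7768, 10427 and 8948 in R159 livers, against 10385, 10172 and 11715 in vehicle livers (-0.26, SE 0.17, adjusted p = 0.274). Hspe1, the small co-chaperonin, had 9659, 14246 and 11796 in R159 livers, against 5660, 4646 and 4395 in vehicle livers (1.27, SE 0.19, adjusted p = 0.00409). Its partner Hspd1, the large chaperonin, had 13947, 13658 and 17628 in R159 livers, against 21398, 23430 and 24115 in vehicle livers (-0.62, SE 0.17, adjusted p = 0.0301), a call lost without R159 replicate 2 or any 1 vehicle library (adjusted p 0.0677 to 0.123). Hspa9, the chaperone of import, was lower as well (-0.99, SE 0.19, adjusted p = 0.00803).

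Of 18 genes of uncoupling and of other routes by which electrons reach ubiquinone, 3 were called higher and 1 lower, again near the 12.8% and 14.2% of all genes tested. Etfb and Etfa, the electron transfer flavoprotein that serves fatty acid oxidation, were both higher (0.96, adjusted p = 0.0160, and 0.71, adjusted p = 0.0465), as was Coq3 of ubiquinone synthesis (0.81, adjusted p = 0.0222). None of these 3 was called without vehicle replicate 2 or without vehicle replicate 3 (adjusted p 0.0544 to 0.129), and Etfa was called only with all libraries or without R159 replicate 1. Gpd2, the mitochondrial glycerol phosphate dehydrogenase, had 1375, 1582 and 1217 in R159 livers, against 3350, 2935 and 3563 in vehicle livers (-1.24, SE 0.16, adjusted p = 0.00345). Each R159 value of Gpd2 was thus below the lowest vehicle value by a factor of more than 1.5.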

How the data were processed

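Per the labels' protocols, stranded poly(A) libraries from 6 mouse livers (3 R159, 3 vehicle) were read as 50-base pairs. STAR 2.7.8a, cutadapt, FastQC 0.11.9 and DESeq2 are named in the submitters' processing notes with the build mm39, without role or order. For the counter, annotation and use of strand, the entry is: not given in the sources used here. The deposited unit is a signal: gene counts, estimated and fractional, that the authors divided by 1 factor per sample, as read from the steps between low values. No count model was used, because only 67.8% to 76.2% of low values came out as whole reads (tolerance 0.02).

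Rows with a mean of at least 10 were kept, 16594 of 18720, and log2(value + 1) was fitted with limma 3.58.1 (R 4.3.3; moderated by eBayes, trend on, 2 groups, Benjamini-Hochberg over all genes, threshold 0.05), which understates changes of low genes. The code was tested on simulated data. Figures used matplotlib 3.10.9. Annotation of another build (GENCODE vM21, GRCm38) gave the median length over principal transcripts for 95 members and overlaps: exons of 35 members overlap another gene, 5 on the same strand and 32 on the other. The length trend was a lowess curve (span 0.3) of each library's deviations on log2 length.

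Members and gene lists were chosen with earlier results of these data known. Values are named for the 5 members of smallest p per complex, the member called lower, the highest member per complex, and fixed core, catalytic, isoform and c ring genes, 54 in all; Ndufv2, Ndufs3, Ndufa10, Ndufs4, Atp5c1, Atp5d, Sdhaf2 and Sdhaf3 were added after their values were seen. Other genes are Ppargc1a, Ppargc1b, Esrra, Nrf1, Gabpa, Tfam, Cs, Cycs and up to 3 called genes of smallest p per list; Tmem126a, Cox15, Coa5, Lrpprc, Slirp, Hspd1, Etfa and marker genes were likewise added later. Alternatives were quantile normalisation, equal totals without mitochondrially encoded genes, a pseudocount of 0.5 or 8, a filter at 50 or none, eBayes without trend or robust, array weights, a replicate block, removal of length trends and leaving out each library. The values of 1 member and 1 marker gene are not reported here.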

Additional observations from a re-analysis of the deposited data

How the results depend on the processing

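With the transcript length trend removed, by median, by longest transcript and by coding length in turn (the last 2 chosen after the data were seen), the median log2 fold change was 0.19, 0.22 and 0.50 over all members, 0.18, 0.21 and 0.54 in complex I, -0.01, -0.06 and -0.16 in complex II, 0.07, 0.01 and 0.37 in complex III, -0.20, -0.26 and 0.14 in complex IV, 0.48, 0.42 and 0.59 in complex V and 0.22, 0.27 and 0.25 in the assembly factors. Counts called higher were 27 and 25 (median and longest transcript) over all members, 8 and 9 in complex I, 0 and 0 in complex II, 1, 1 and 3 in complex III, 4 and 4 in complex IV, 8 in complex V by longest transcript, and 3 and 2 assembly factors by longest transcript and coding length. Members called lower numbered 3 and 4. Without overlap, 41 and 43 members had higher R159 values and 12 and 12 had lower ones. The same share over all coding genes was not counted in these settings, so these non-overlap counts are no result about the members. By longest transcript, the share of all coding genes called was not counted either. Outside the rule 10, 11 and 9 genes were called higher and 3 and 3 lower; of mitochondrially encoded genes 0, 0 and 3 were called higher, and 2 and 2 lower.

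Members called lower numbered 3 with quantile normalisation, 4 with equal totals and 2 with array weights. With equal totals 3 assembly factors were called higher, the complex II median was 0.09 and the median of all genes moved by -0.13; without the trend in eBayes 0 complex II genes and 3 assembly factors were called higher and 3 genes outside the rule lower. Mitochondrially encoded genes called higher numbered 2 with quantile normalisation, 9 with a robust prior and 8 with array weights. The shares of all genes called were not counted in the settings of this paragraph. Its counts are therefore no result about these genes. With the replicate number as a block 64 members were called higher and 1 lower; among named genes Uqcrfs1 and Cycs gained a call and Atp5g3, Atp5c1 and Sdhaf2 lost theirs. Same-numbered libraries did not deviate together (r = -0.0981, 0.0314 and 0.108), and R159 replicate 1 correlated best with vehicle replicate 2 (0.0981), so the numbers were not taken as pairs.

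Leaving out each library gave 48 to 76 members called higher and 1 to 2 lower, with 22 to 35 in complex I, 0 to 2 in complex II, 5 to 7 in complex III, 8 to 11 in complex IV, 10 to 13 in complex V and 3 to 8 assembly factors. Medians were 0.78 to 1.05 over all members, 0.81 to 1.13, 0.18 to 0.29, 0.92 to 1.25, 0.72 to 1.00 and 0.98 to 1.40 in complexes I to V, and 0.45 to 0.67 in the assembly factors. Outside the rule 12 to 25 genes were higher and 3 to 6 lower, and 0 to 7 mitochondrially encoded genes were higher. Of all genes tested, 12.8% were called higher with all libraries and 9.5% without R159 replicate 2. Without vehicle replicate 2 the share was 5.54%, and without vehicle replicate 3 it was 6.42%. For the other libraries it was not counted, so the ranges of counts are no result about how stable the members are.

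Estimates of single genes that changed sign are given by setting. With the transcript length trend removed by median, the log2 fold change was -0.25 for Sdhd, -0.08 for Uqcr11, -0.07 for Cyc1, -0.07 for Uqcrc1, -0.28 for Cox6a1, -0.43 for Cox8a, -0.70 for Cox5a, -0.34 for Cox7a2l, -0.48 for Cox4i2, -0.42 for Ndufa4l2, -0.06 for Atp5k, -0.32 for Atp5g3, -0.05 for Ndufaf8, -0.23 for Atp5d, -1.09 for mt-Atp8, -1.12 for mt-Nd4l, 0.28 for Ppargc1a and 0.03 for Ppargc1b. By longest transcript, the log2 fold change was -0.31 for Sdhd, -0.04 for Uqcr10, -0.15 for Uqcr11, -0.11 for Cyc1, -0.10 for Uqcrc1, -0.34 for Cox6a1, -0.50 for Cox8a, -0.76 for Cox5a, -0.35 for Cox7a2l, -0.53 for Cox4i2, -0.48 for Ndufa4l2, -0.12 for Atp5k, -0.37 for Atp5g3, -0.04 for Ndufaf2, -0.11 for Ndufaf8, -0.12 for Atp5d, -1.15 for mt-Atp8, -1.18 for mt-Nd4l and 0.27 for Ppargc1a. By coding length, the log2 fold change was -0.08 for Sdhc, -0.24 for Sdhd, -0.28 for Cox8a, -0.22 for Cox5a, -0.43 for Cox7a2l, -0.55 for Ndufa4l2, -0.13 for Ndufaf8, -0.14 for Atp5d, -0.45 for Sdhaf3, -0.27 for mt-Atp8, -0.32 for mt-Nd4l, 0.09 for Ppargc1a and 0.13 for Ppargc1b. With quantile normalisation, the log2 fold change was -0.08 for Uqcrc1 and 0.07 for Atp5g2. With equal totals, the log2 fold change was -0.03 for Uqcrc1 and -0.03 for Sdhaf3. With array weights, the log2 fold change was 0.09 for Atp5g2. With a pseudocount of 8, the log2 fold change was 0.16 for Cox8b. Over the libraries left out in turn, estimates that changed sign ranged from -0.01 to 0.28 for Uqcrc1, -0.54 to 1.00 for Cox4i2, -0.64 to 0.91 for Ndufa4l2, -1.52 to 0.61 for Cox8b, -0.17 to 0.08 for Atp5g2, -0.06 to 0.28 for Sdhaf3 and -0.59 to 0.13 for Ppargc1a. The cause was not tested.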

Other observations

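Of the 6 processed copies that the symbol rule leaves out, Ndufa12-ps had the largest share of its parent gene's value, 17.97%, 25.15% and 23.58% in R159 replicates 1 to 3, against 19.61%, 16.27% and 16.95% in vehicle replicates 1 to 3. Atp5pb-ps and Cox5b-ps were at 1.98% to 3.08% of their parents in R159 libraries and at 1.99% to 2.56% in vehicle libraries. Reads of a parent and its copy can be shared, so the value of Ndufa12 (3605 per kilobase in R159 livers and 2211 in vehicle livers, log2 fold change 0.67) is less certain than that of members without a copy.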
